A study of Mus musculus with 57 samples.

Results

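Open chromatin of mouse epiblast stem cells (EpiSCs) was followed from the pre-streak embryo into gastrulation and Wnt stimulation, for the regions that were listed early and missing later. The members were peaks of the ATAC-seq list of unstimulated wild-type EpiSCs (0 h) that overlapped a peak in both lists of E6.0 embryos, and none in the list of wild-type EpiSCs after 48 h of CHIR99021 or in the list of the posterior part of E7.5 embryos. ATAC-seq marks open chromatin through the sites that a transposase can reach. The rule gave 4320 of the 41309 regions listed at 0 h, or 10.5%, and they are called early-only regions here. Members were chosen by presence in, or absence from, those 5 ATAC-seq lists, so these are a description and not a result. Of all 0 h regions 67.6% were in both E6.0 lists, 33.8% were missing at 48 h and 46.4% at E7.5. "Absent" means absent from a peak list: the lists hold no read counts, depth is unknown, and an unlisted region can still be open to some degree.

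EpiSCs are cultured cells derived from E6.0 epiblast explants, grown with Fgf-basic, Activin A and IWP2 (2 µM), which blocks the secretion of Wnt proteins. In stimulated cultures IWP2 was withdrawn and CHIR99021 (3 µM), an inhibitor of GSK3 that switches on the Wnt pathway inside the cell, or Wnt3a protein (125 ng/mL) was added, so a stimulated culture differs in both agents from one kept in IWP2. Wild-type EpiSCs gave 1 ATAC-seq list after 48 h of CHIR99021, 1 at 0 h, 2 lists of H3K27ac after 24 h of CHIR99021 and 1 at 0 h. EpiSCs labelled Wnt3KO, which cannot make their own Wnt3, gave lists of H3K27ac, H3K4me3 and H3K27me3 at 0 h and after 6 h, 12 h and 72 h of CHIR99021. Ring1b in Wnt3KO EpiSCs was listed at 0 h and after 72 h of CHIR99021, and both Ring1b and H3K27me3 after 5 h of Wnt3a. The wild-type 0 h samples and the Wnt3KO 0 h samples of H3K27me3 and Ring1b are labelled with IWP2. The Wnt3KO 0 h samples of H3K27ac and H3K4me3 are labelled as having no Wnt stimulation, with no word on IWP2. Wild-type embryos gave 2 ATAC-seq lists for E6.0, another 2 for E7.2 and 1 for the posterior part of E7.5. The sources used here do not say whether embryos were pooled or how many Wnt3KO clones there were.

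The epiblast is the embryonic tissue from which the germ layers arise. Before gastrulation it is held in a primed pluripotent state by transcription factors such as Pou5f1, Sox2, Otx2 and Nanog, together with Nodal, Activin and Fgf signalling. Wnt signals on the posterior side start the primitive streak and lead to mesoderm, endoderm and, later, posterior Hox gene activity. H3K27ac marks active promoters and enhancers and H3K4me3 marks promoters. H3K27me3 and Ring1b belong to Polycomb repression.

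A pair of early-only regions lay at the starts of named genes, and the promoters concerned are shown because these members lay nearest to the placed start of a listed gene. A member at chr6:122657291-122657779 (mm9) had its summit at -0.133 kb from the placed start of Nanog, a homeobox factor of the pluripotent epiblast. Another at chr9:118386872-118387321 (mm9) had its summit at -0.0630 kb from the placed start of Eomes, a T-box factor of the early streak. The runs are the 250 bases before each start from RefSeq, in GRCm38.p6 coordinates and on the plus strand, chr6:122707239-122707488 for Nanog and chr9:118477939-118478188 for Eomes. They are not the bases of the mm9 regions, for which no genome of that build was at hand.
Nanog: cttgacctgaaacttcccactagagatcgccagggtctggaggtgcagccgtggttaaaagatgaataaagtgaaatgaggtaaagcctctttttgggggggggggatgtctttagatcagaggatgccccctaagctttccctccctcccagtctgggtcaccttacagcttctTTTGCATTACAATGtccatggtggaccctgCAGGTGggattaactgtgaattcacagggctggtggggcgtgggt
Eomes: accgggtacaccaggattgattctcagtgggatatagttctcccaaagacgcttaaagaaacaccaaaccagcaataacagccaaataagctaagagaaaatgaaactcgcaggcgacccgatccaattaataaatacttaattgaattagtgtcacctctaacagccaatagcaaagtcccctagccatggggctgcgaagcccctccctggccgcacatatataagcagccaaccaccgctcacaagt
Capitals mark matches to 4 motifs searched on both strands and chosen with the Nanog promoter known: the SOX-POU composite by its name, the POU octamer ATGCAAAT, the TCF/LEF motif CTTTGAT and the E-box CAGGTG of the SNAI/ZEB type. The composite holds most letters of the octamer, so these searches overlap. The Nanog run holds the composite starting 75 bases before the start, on the minus strand, and the E-box starting 45 bases before it. The composite occurs in 2 of 32851 promoter runs of this length (0.00609%), both of them listed for Nanog. The E-box occurs in 17.2% of these runs, the octamer in 1.60% and the TCF/LEF motif in 3.21%. The Eomes run holds none of the 4 motifs. A match describes letters and not a bound site.

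The early-only regions were weak and narrow at 0 h. Their fold enrichment over local background, a value given by the authors' peak caller and used only within a list, had a median of 7.38 and ran between 2.20 and 49.8, against a median of 9.84 for all 0 h regions. The median length was 310 bp, against 463 bp for all 0 h regions. They lay far from promoters: the nearest H3K4me3 region of Wnt3KO EpiSCs at 0 h was a median 53.6 kb away, and 79.6% lay over 10 kb from one, against 12.0 kb and 51.5% for all 0 h regions. Kept regions, the 18868 regions of both E6.0 lists that were also listed at 48 h and at E7.5, had a median fold of 19.8, a median length of 904 bp and mostly overlapped H3K4me3. Regions of both E6.0 lists that were absent at E7.5 alone (3423) or at 48 h alone (1300) had median folds of 9.23 and 7.02. Their median lengths were 423 and 303 bp, and 58.8% and 70.8% lay over 10 kb from H3K4me3, at median distances of 17.4 and 41.2 kb. Regions absent at 48 h alone were thus about as weak and narrow as the members and also mostly far from promoters. At the edges of the rule, 37 members met an E6.0 region by under 50 bp, 233 members (5.39%) had a 48 h or E7.5 region within 500 bp, and 50 regions were left out for an overlap of under 50 bp.

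The lists of the series differ in size, which bears on every share below. They hold 10161 to 29056 regions for H3K27ac, 16287 to 17714 for H3K4me3, 1012 to 6236 for H3K27me3, 604 to 2244 for Ring1b and 33881 to 72433 for ATAC-seq. Peak names place the lists in 7 processing folders. Wild-type H3K27ac at 24 h and at 0 h stand in different folders, so the effect of the folder and that of the time cannot be told apart. The same holds for the ATAC-seq lists of EpiSCs at 48 h and at 0 h, which the rule compares. For absence at 48 h, folder and CHIR99021 therefore cannot be told apart either. The E7.5 list stands in the folder of the 0 h ATAC-seq list. In Wnt3KO EpiSCs the 0 h and 72 h lists stand in one folder and the 6 h and 12 h lists in another, apart from the first 0 h replicates of H3K27me3 and Ring1b, which stand with Wnt3a and the inputs. With 1 or 2 libraries per group, no test between groups was run. Shares of regions carry 95% Wilson intervals, which cover counting error only.

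The E7.2 libraries, which the rule did not use, held most early-only regions in one library and a minority in the other. Replicate 1 listed 1702 of the 4320 members (39.4%, interval 38.0% to 40.9%), against 55.1% of all 0 h regions, and replicate 2 listed 3531 (81.7%, interval 80.6% to 82.9%), against 77.9%. Both replicates listed 1665 members (38.5%), replicate 2 alone 1866 (43.2%), replicate 1 alone 37 (0.856%) and neither 752 (17.4%). For all 0 h regions these shares were 54.7%, 23.2%, 0.453% and 21.7%. In tissue, fewer cells with an open region and less open chromatin per cell cannot be told apart. A description of these regions as closing with stage therefore rests on the E7.5 list that chose them and does not hold uniformly for E7.2. The E7.5 list comes from the posterior part, while the labels of E6.0 and E7.2 name no part. Stage and part of the embryo thus cannot be told apart for E7.5. The replicates differ in list length, with 33881 regions in replicate 1 and 72433 in replicate 2, and stand in different folders. Their peak names also carry different stage names, E75young for replicate 1 and embryo73 for replicate 2, as do those of the E6.0 replicates (E65 and embryo63). The part of list length, folder and stage in the difference between the replicates was not tested. With all ATAC-seq lists shortened to equal length the rule gave 1944 members, of which 61.0% were in replicate 1 and 63.3% in replicate 2.

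Among regions of both E6.0 lists the order of the classes was the same in the E7.2 libraries. In replicate 1 the shares were 39.4% for early-only regions, 49.8% for regions absent at E7.5 alone, 67.3% for regions absent at 48 h alone and 92.7% for kept regions. In replicate 2 they were 81.7%, 92.0%, 97.5% and 99.8% in that order. The intervals of neighbouring classes did not overlap in either library, but they cover counting error over regions and not variation between embryos. Where early-only regions were listed at E7.2 their median percentile by fold within the list was 34.7 in replicate 1 and 51.8 in replicate 2. Regions absent at E7.5 alone had similar ranks, 33.4 and 53.6, while kept regions were at 71.4 and 85.7 and all 0 h regions at 63.3 and 73.5.

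**Figure D1:**
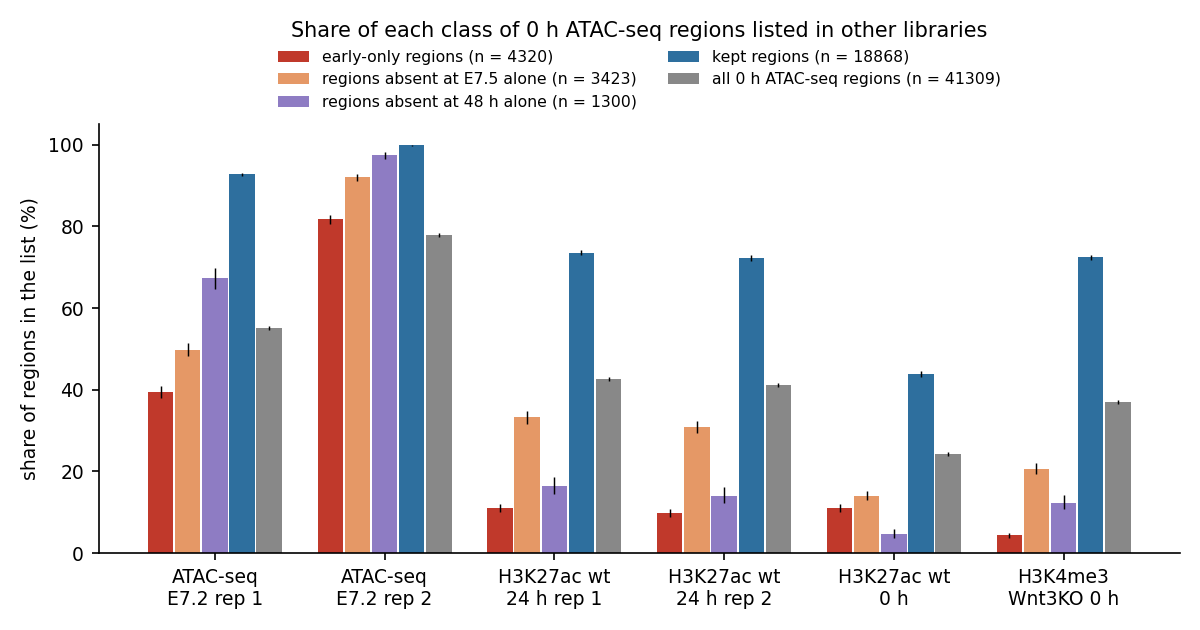
Share of each class of 0 h ATAC-seq regions, in percent, that overlapped a region in each library on the horizontal axis; bars are classes and error bars 95% Wilson intervals. Early-only regions had the lowest share among the classes of regions shared with E6.0 in 5 of the 6 libraries shown, with 39.4% at E7.2 in replicate 1 against 92.7% of kept regions; for H3K27ac at 0 h, regions absent at 48 h alone were lower still, at 4.69%.

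The E7.2 shares followed the strength of the region at 0 h. In replicate 1, 34.9% of the 691 members with a 0 h fold of up to 5 were listed, 36.9% of 2477 between 5 and 10, 43.3% of 723 between 10 and 15, 47.8% of 247 between 15 and 20, 62.4% of 133 between 20 and 30 and 69.4% of 49 above 30. Replicate 2 went in the same direction, with 75.4% in the lowest group and 91.8% in the highest. Matched for strength, early-only regions stayed below kept regions but not always below the whole list. The 0 h list was cut at folds of 6.46, 9.84 and 19.4 into 4 bands of about equal size. In band 4, the strongest, replicate 1 listed 63.0% of 200 early-only regions (interval 56.1% to 69.4%) and 99.4% of 9632 kept regions, and in band 1 it listed 36.8% of 1670 against 75.1% of 1048. In bands 1 to 4 replicate 1 listed 36.8%, 36.0%, 44.2% and 63.0% of early-only regions, against 23.7%, 35.0%, 65.5% and 96.9% of all 0 h regions, which include those missing at E6.0. The members were thus above the whole list in band 1, near it in band 2 and below it in bands 3 and 4. Leaving out regions with H3K4me3 at any time gave 62.6% against 96.0% of kept regions in band 4. Over all bands without H3K4me3, replicate 1 listed 39.4% of early-only and 33.1% of all 0 h regions, and replicate 2 listed 81.4% and 65.5%.

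**Figure D2:**
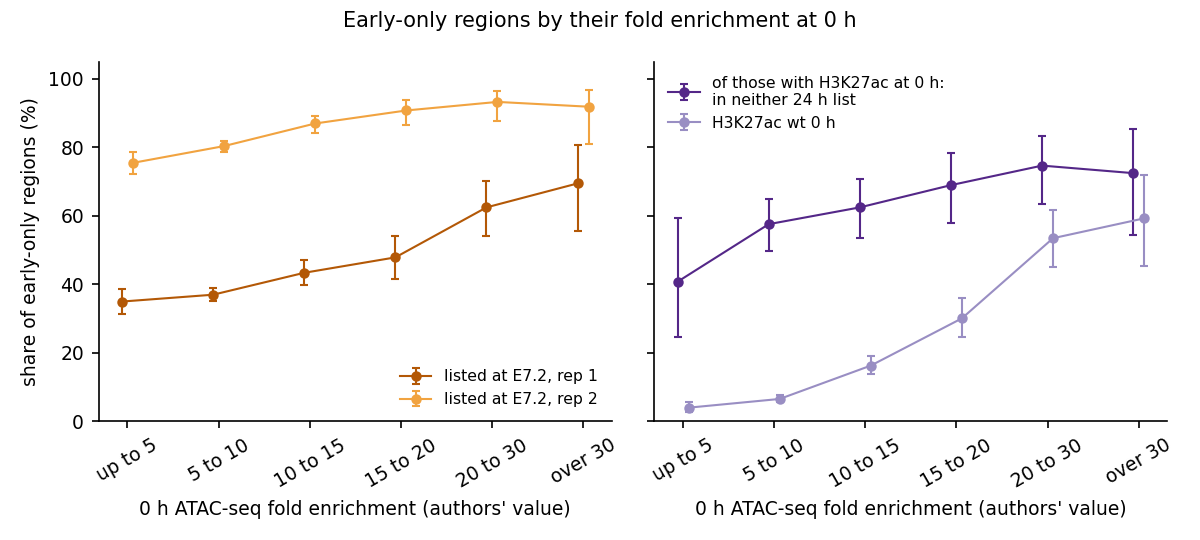
Share of the early-only regions, in percent, in groups of rising 0 h ATAC-seq fold enrichment; the left panel shows presence at E7.2 in replicates 1 and 2, the right panel H3K27ac of wild-type EpiSCs at 0 h and its absence from both 24 h lists where it was listed at 0 h. Error bars are 95% Wilson intervals. H3K27ac at 0 h was listed for 3.91% of members with a fold of up to 5 and for 59.2% of those above 30.

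Few early-only regions carried H3K27ac in wild-type EpiSCs. After 24 h of CHIR99021, 480 members (11.1%) were listed in replicate 1 and 422 (9.77%) in replicate 2, against 478 (11.1%, interval 10.2% to 12.0%) at 0 h. Among all 0 h ATAC-seq regions these shares were 42.6% and 41.2% at 24 h and 24.3% at 0 h. Both 24 h libraries listed 345 members (7.99%), against 39.2% of all regions. Of these 345, 214 had no H3K27ac at 0 h, against 7138 of 16178 for all regions in both 24 h lists. For regions absent at E7.5 alone it was 577 of 970, and for those absent at 48 h alone 118 of 148. In all, 3462 members (80.1%) had no wild-type H3K27ac in any list, against 53.5% of all regions and 79.2% of regions absent at 48 h alone. The share at 0 h depends on what counts as overlap: 7.03% of members had it where the overlap had to cover 50% of the shorter region, and 5.51% with the 0 h summit inside the H3K27ac region.

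Where early-only regions had H3K27ac at 0 h, most of them had none after 24 h of CHIR99021. Of the 478 members, 301 (63.0%, interval 58.6% to 67.2%) were in neither 24 h list, 46 (9.62%) in 1 of them and 131 (27.4%) in both. Of all 10018 0 h regions with H3K27ac at 0 h, 7.60% were in neither 24 h list, 2.17% in 1 and 90.2% in both. Replicate 1 taken alone lacked 66.5% of the 478 members and 8.33% of all such regions, and replicate 2 lacked 69.0% and 9.02%. The share in neither 24 h list was 13.3% of 483 regions absent at E7.5 alone, 34.4% of 61 regions absent at 48 h alone (interval 23.7% to 47.0%) and 0.931% of 8269 kept regions. The 24 h lists are longer than the 0 h list (29056 and 27422 regions against 14453). With the 24 h lists shortened to the length of the 0 h list, the share in neither was 86.6% for early-only regions, 5.04% for kept regions and 14.9% for all 0 h regions, while 2.04% of members were then in both 24 h lists. With these shortened lists the share in neither was 65.6% for regions absent at 48 h alone (interval 53.0% to 76.3%). For regions absent at E7.5 alone it was 36.9%. The reverse change was less common than in other classes: of the 3842 members without H3K27ac at 0 h, 214 (5.57%) were in both 24 h lists, against 22.8% of all such regions and 48.1% of such kept regions. Such regions absent at 48 h alone were nearest, at 9.52%, and those absent at E7.5 alone were at 19.6%.

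**Figure D3:**
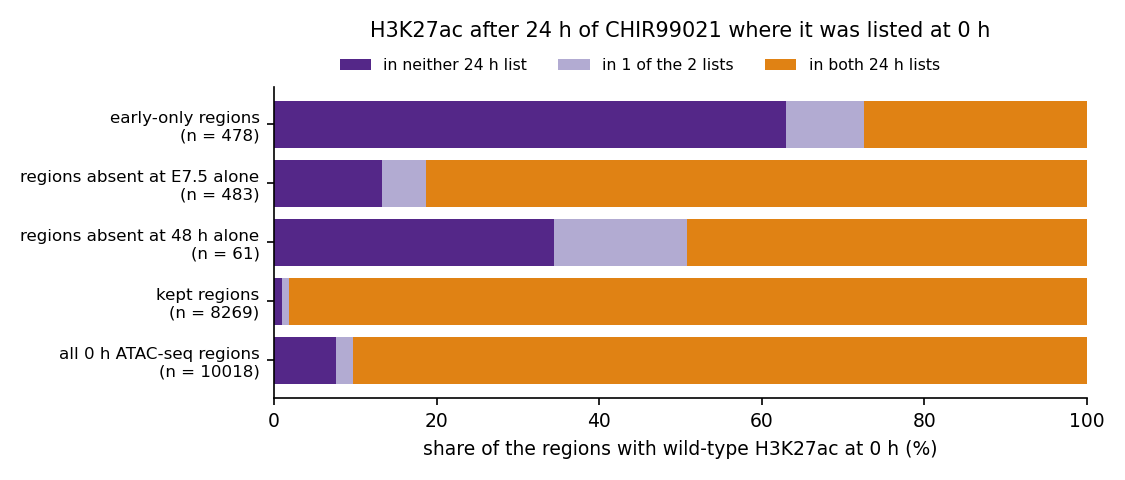
Regions with wild-type H3K27ac at 0 h, by class, split by their presence in the H3K27ac lists after 24 h of CHIR99021; the horizontal axis is the share of such regions in percent and n their number. In neither 24 h list were 63.0% of the early-only regions and 0.931% of the kept regions.

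Away from promoters the early-only regions still differed from kept regions, and the distance to the whole list was smaller. Among regions without H3K4me3 at any time, H3K27ac was about as common at 0 h in both classes, with 444 of 4080 early-only regions (10.9%, interval 9.96% to 11.9%) and 492 of 4766 kept regions (10.3%, interval 9.49% to 11.2%). Both shares were above that of all 0 h regions without H3K4me3, 1768 of 25246 (7.0%), whereas over regions with and without it the members were below the whole list. At 24 h both replicates listed 6.84% of these early-only regions, 30.6% of these kept regions and 14.2% of all such regions. Of the regions with H3K27ac at 0 h, 66.9% of the early-only, 10.4% of the kept and 40.2% of all regions were in neither 24 h list. In bands 2, 3 and 4 of the 0 h ATAC-seq list the early-only share in neither was 65.4%, 68.5% and 75.2%, the kept share 10.6%, 12.1% and 8.74%, and the share of all regions 47.3%, 39.8% and 32.0%. In band 1, the weakest, 29 of 58 early-only, 1 of 14 kept and 45.6% of all 250 regions were in neither, and the intervals of the early-only and of all regions overlapped. A split by the rank of the H3K27ac region itself was added after the data were seen: over 4 such bands of the 0 h H3K27ac list, 66.7%, 72.0%, 60.5% and 68.7% of the early-only, 11.2%, 12.8%, 12.4% and 3.85% of the kept and 41.8%, 44.2%, 39.6% and 31.8% of all regions were in neither. Of regions absent at 48 h alone, 9 of 18, 9 of 15, 1 of 5 and 2 of 12 were in neither. Their intervals overlapped those of the early-only regions in bands 1 to 3 and not in band 4.

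Of the 301 members with H3K27ac at 0 h and in neither 24 h list, 20 (6.64%) had a 24 h region within 1 kb and 239 (79.4%) had none within 10 kb, with a median distance of 53.9 kb. Of all 761 such regions of the 0 h list, 10.9% had one within 1 kb and 71.6% had none within 10 kb, with a median of 38.6 kb. These 301 members lay a median 112 kb from H3K4me3, against 19.7 kb for the 131 members in both 24 h lists. At E7.2 replicate 1 listed 40.9% of the 301 and 45.0% of the 131, and replicate 2 listed 80.4% and 88.5%. Among all 0 h regions split in the same way, replicate 1 listed 32.3% and 91.4%, and replicate 2 listed 60.8% and 97.4%.

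The 10 members with the highest 0 h fold all had H3K27ac at 0 h, and 8 of them were in neither 24 h list. H3K27ac at 0 h was more common at higher folds among the members. Of the 49 members with a fold above 30, 59.2% had it, and 72.4% of these 29 were in neither 24 h list. Over all 0 h regions of any fold the shares were 24.3% and 7.60%. No H3K4me3 was listed over any of the 10, at any time, nor H3K27me3 or Ring1b in both 0 h replicates. The leading member, chr14:78688592-78689430, had a fold of 49.8 at 0 h in ATAC-seq, 12.8 for H3K27ac at 0 h, and an E7.2 region in replicate 2 only. The next, chr4:69484912-69486086, had a fold of 49.2 at 0 h, 5.19 and 7.91 at E7.2, and lay 553 kb from the nearest H3K4me3 region. Next came chr16:79296703-79297393 (fold 45.8), chr10:7172584-7174165 (44.0) and chr6:141641776-141642676 (43.4), of which the last was in neither E7.2 list. Replicate 2 at E7.2 listed 9 of the 10, and replicate 1 listed 4.

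The exceptions among the 10 were chr4:144694669-144695434, with H3K27ac at 24 h in replicate 1 and at 0 h, and chr1:16814171-16815433. The last was listed at 24 h in both replicates with folds of 4.88 and 5.12, and was also listed at 0 h; these come from different lists and show no size of change. It was also the only one of the 10 with H3K27ac in Wnt3KO EpiSCs, where it was listed at 0 h and 6 h and not at 12 h or 72 h. The 10 leading members with H3K27ac in neither 24 h list ran between folds of 49.8 and 37.2, and none of them had H3K27ac in a Wnt3KO list. The ninth of these, chr9:118314933-118315811, has its summit at -71.9 kb from the placed start of Eomes.

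Gene names could be given only near 32 genes of 2 lists, whose mm9 starts were set from general knowledge and checked against H3K4me3 within 1 kb; the starts of Lefty2, Tdgf1, Esrrb, Zfp42 and Foxa2 had none there and were not used. H3K4me3 lay at 17 of 21 epiblast gene starts and at 15 of 16 posterior ones, in Wnt3KO EpiSCs at 0 h or 72 h. It therefore gives no check on the cell label, and RNA was not measured. Within 100 kb of 17 epiblast genes lay 171 regions of the 0 h list, of which 21 (12.3%) were early-only and 70 (40.9%) kept. Within 100 kb of 15 posterior, mesendoderm and Wnt target genes lay 145 regions, of which 12 (8.28%) were early-only and 88 (60.7%) kept. Over the whole 0 h list 10.5% were early-only and 45.7% kept, so the early-only shares of the lists stand on either side of the background and close to it. H3K27ac at 0 h was listed for 8 of the 21 members near epiblast genes, and 4 of these 8 were in neither 24 h list. Over all members H3K27ac was listed at 0 h for 11.1%, of which 63.0% were in neither 24 h list, and over all 0 h regions for 24.3%, of which 7.60% were in neither. Near the posterior genes it was listed for 1 of 12, which was in neither 24 h list.

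Around epiblast genes most early-only regions lay over 1 kb from the gene start. In the following, distances run along increasing coordinates, so a minus sign means a lower coordinate. The member at the start of Nanog had a 0 h fold of 8.30, H3K4me3 at 0 h, 6 h and 12 h and not at 72 h, and H3K27ac in replicate 2 at 24 h and at 0 h. At E7.2 it was listed in both replicates, with folds of 3.66 and 4.42. Foxd3, a forkhead factor of the pluripotent epiblast, had 2 members at -14.5 kb and 4.37 kb with 0 h folds of 12.3 and 8.31. Both had H3K27ac at 0 h and none at 24 h, and neither was listed at E7.2. Of the kept regions of Foxd3 with H3K27ac at 0 h, the one at 0.866 kb was in neither 24 h list. The one at 58.7 kb was listed at 24 h. Otx2 had 3 members at -12.8, 33.3 and 86.4 kb, all in both E7.2 lists. The farthest had H3K27ac at 0 h (fold 7.09) and in neither 24 h list, as did the kept regions of Otx2 at -1.32 and 85.4 kb.

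Utf1, a chromatin factor of undifferentiated cells, had 3 members, of which the one at 1.03 kb had H3K27ac at 0 h and in neither 24 h list. The same held for its kept region at 5.41 kb, while its kept region at 91.9 kb had H3K27ac at 0 h and was listed at 24 h. Sox2 had a member at 3.98 kb with H3K27ac in both 24 h lists and at 0 h and H3K4me3 throughout, and another at 21.5 kb without either mark; neither was listed at E7.2. Dnmt3b, a DNA methyltransferase that sets new methylation, had members at -9.69 and -5.88 kb. Lefty1, an inhibitor of Nodal signalling, had members at -60.8 and 39.6 kb, which E7.2 replicate 2 listed and replicate 1 did not. Pou3f1, Fgf5, Sall4, Lin28a, Mycn and Klf4 had 1 member each. The Fgf5 member, at 56.5 kb, had H3K27ac in both 24 h lists and not at 0 h. No member lay within 100 kb of Pou5f1 among its 12 regions, nor near Nodal, Zic2 or Sox3.

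Among the posterior genes Eomes had the most members, 4 of its 9 regions, at -71.9, -45.2, -0.0630 and 8.80 kb. The member at the gene start had a 0 h fold of 7.12, H3K4me3 at all 4 Wnt3KO times, no H3K27ac in any list and an E7.2 region in replicate 2 with a fold of 14.5. The one at -71.9 kb was the strongest, with a 0 h fold of 37.5 and H3K27ac at 0 h (fold 6.74) and in neither 24 h list. A kept region of Eomes at 11.6 kb likewise had H3K27ac at 0 h and in neither 24 h list. Gsc, a homeobox factor of the anterior streak, had 3 members of 11 regions. The member at -1.28 kb had H3K27me3 and Ring1b in both 0 h replicates and H3K4me3 at 72 h only. T, the streak factor Brachyury, had 1 member at -4.27 kb, listed in both E7.2 replicates and without H3K27ac, while 8 of its 12 regions were kept. The Axin2 member at 8.29 kb had H3K27ac in both 24 h replicates and not at 0 h, as did the Fgf5 member of the epiblast list. Over the whole class this held for 214 of the 3842 members without H3K27ac at 0 h (5.57%), against 22.8% of all such regions. In Wnt3KO EpiSCs H3K27ac and H3K4me3 were listed over the Axin2 member at 72 h only. Axin2 is a feedback inhibitor and target of Wnt signalling. Cdx2, Lef1 and Wnt3a had 1 member each, and none lay near Tbx6, Msgn1, Mixl1, Sp5, Fgf8, Wnt3, Evx1 or Sp8.

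**Figure D4:**
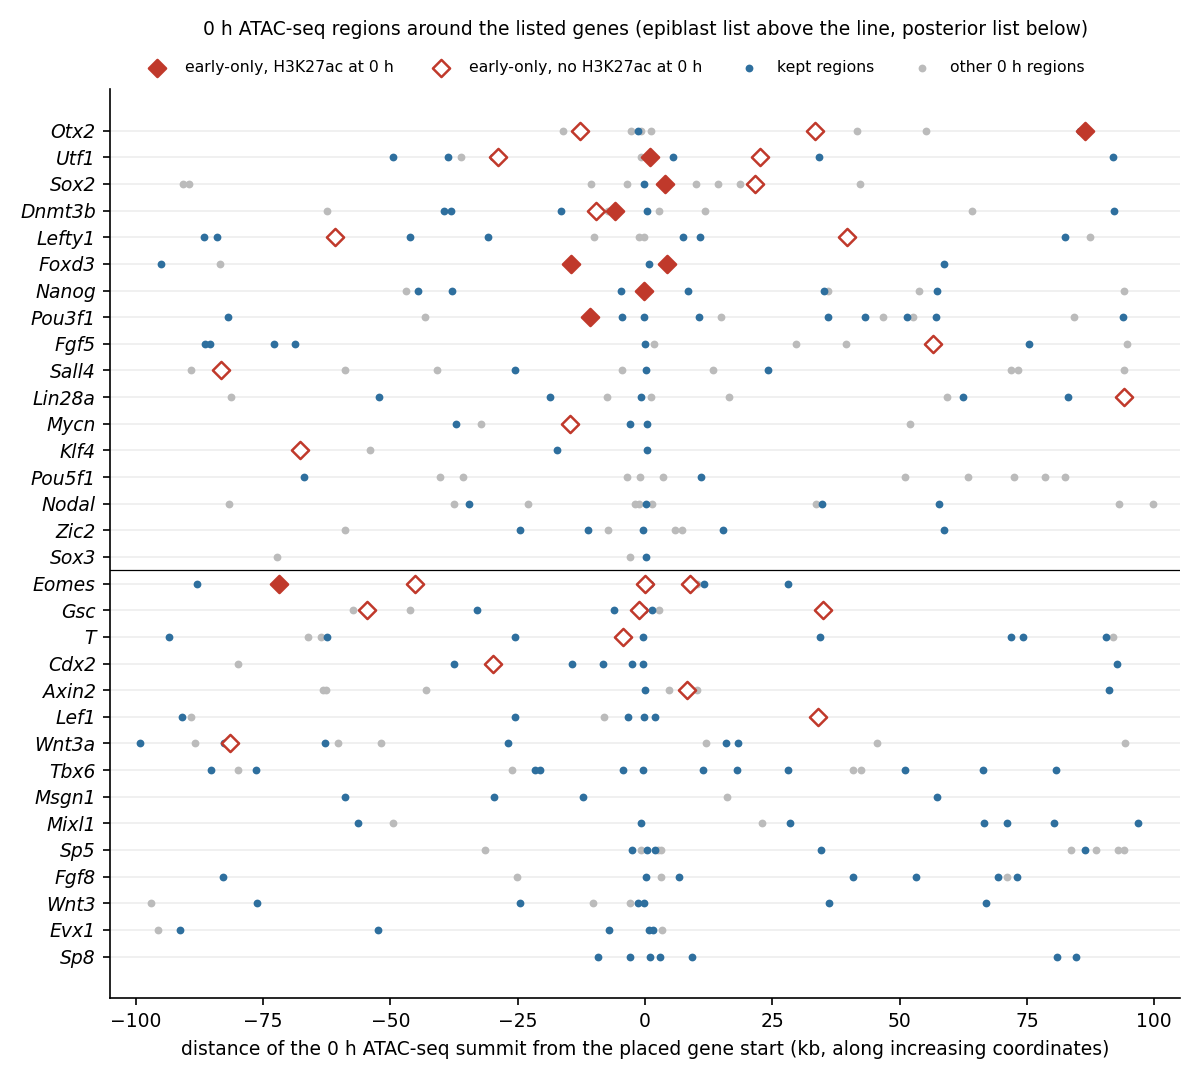
Regions of the 0 h ATAC-seq list within 100 kb of the placed starts of 17 epiblast genes (above the line) and 15 posterior genes (below it); the horizontal axis is the distance of the summit from the start in kb, along increasing coordinates. Diamonds are early-only regions, filled where wild-type H3K27ac was listed at 0 h (8 of 21 above, 1 of 12 below), blue points kept regions and grey points all others.

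In Wnt3KO EpiSCs the early-only regions had little H3K27ac at 0 h and almost none after 72 h of CHIR99021. At 0 h it was listed over 96 members (2.22%, interval 1.82% to 2.71%), at 6 h and again at 12 h over 53 (1.23%), and at 72 h over 8 (0.185%, interval 0.0939% to 0.365%). All 0 h regions had 22.9%, 18.2%, 20.9% and 19.7% at the same times, and kept regions 45.8%, 36.8%, 42.4% and 41.5%. Low H3K27ac at 0 h was shared with regions absent at 48 h alone, of which 2.23% had it at 0 h and 3.69% at any time. At 72 h 1.31% of these regions had it (interval 0.818% to 2.08%). Of the 96 members listed at 0 h, 3 (3.12%, interval 1.07% to 8.79%) were listed at 72 h, in a list of the same folder, against 75.6% of all 0 h regions with H3K27ac at 0 h and 80.3% of such kept regions. Regions absent at E7.5 alone kept it in 33.2% of 310 cases. At any of the 4 times H3K27ac was listed for 154 members (3.56%), against 28.9% of all 0 h regions. Of the 154, 64 (41.6%) were listed at 0 h only and 1 at all times; among 10583 such kept regions 6.32% were at 0 h only and 48.3% at all times. With the H3K27ac lists shortened to equal length the early-only share at 0 h was 1.55%, and with the 0 h summit inside the H3K27ac region it was 0.896%.

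The 8 members with H3K27ac at 72 h, singled out after their values were seen, all had H3K4me3 at 72 h, and 7 of them had wild-type H3K27ac in both 24 h lists. Of all 8152 regions of the 0 h list with H3K27ac at 72 h, only 214 had no H3K4me3 at any time. H3K4me3 over the 8 members is thus what most regions of that list show. Their 0 h folds were low, between 3.95 and 8.31. They include the Axin2 member (chr11:108790124-108790358) and chr11:120094891-120096284, the one listed at all 4 times. The exception without wild-type H3K27ac was chr15:102786327-102786702. Among the 4080 members without H3K4me3 at any time, none was listed with H3K27ac at 72 h, against 122 of 4766 such kept regions (2.56%) and 214 of 25246 such regions of the whole list (0.848%).

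**Figure D5:**
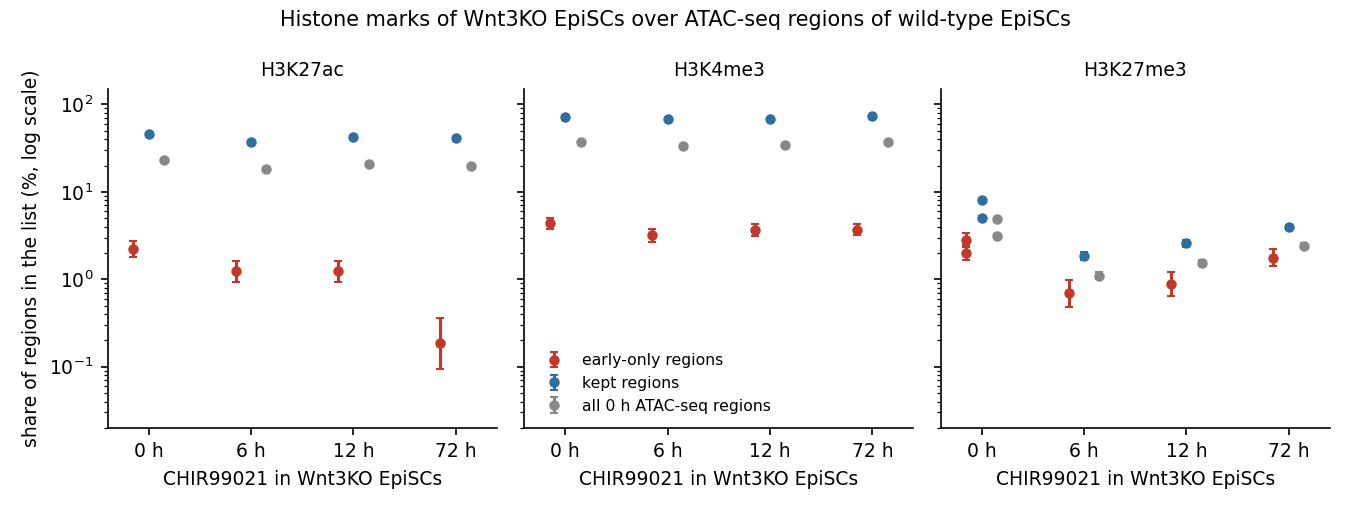
Share of early-only, kept and all 0 h ATAC-seq regions, in percent on a log axis, that overlapped H3K27ac, H3K4me3 or H3K27me3 in Wnt3KO EpiSCs at 0 h and after 6, 12 and 72 h of CHIR99021; error bars are 95% Wilson intervals, and H3K27me3 has 2 libraries at 0 h. H3K27ac over early-only regions was at 2.22% at 0 h and 0.185% at 72 h, while kept regions were at 45.8% and 41.5%.

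At 0 h, Wnt3KO EpiSCs had H3K27ac over fewer early-only regions than wild-type EpiSCs. The mark was listed over 96 members in Wnt3KO EpiSCs and 478 in wild-type EpiSCs, with 54 in common, which is 56.2% of the Wnt3KO set and 11.3% of the wild-type set (interval 8.76% to 14.4%). The smaller Wnt3KO set limits the part of the wild-type set that could be shared. For all 0 h regions the shared part was 78.5% of the Wnt3KO and 74.0% of the wild-type set. For regions absent at 48 h alone the shared part of the wild-type set was 18.0% of 61 (interval 10.4% to 29.5%), which overlaps the interval of the members. For those absent at E7.5 alone it was 46.6% of 483. Away from H3K4me3, where 9.46% of 444 early-only regions with wild-type H3K27ac had it in Wnt3KO EpiSCs, the share for kept regions was 37.6% of 492 and that for all such regions 23.1% of 1768. Regions absent at 48 h alone were there close to the members, at 10.0% of 50 (interval 4.35% to 21.4%). Those absent at E7.5 alone were at 31.1% of 244. Low sharing with Wnt3KO EpiSCs was thus not particular to the members. Members with H3K27ac in neither wild-type 24 h list had it in Wnt3KO EpiSCs at 0 h in 4.98% of cases, and those in both 24 h lists in 24.4%. The Wnt3KO and wild-type 0 h lists hold 12135 and 14453 regions. Each genotype has 1 library, and the libraries stand in different folders and carry different medium labels, so genotype, folder and medium cannot be told apart.

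H3K4me3 was uncommon over the early-only regions, with 240 members (5.56%) listed at any time, against 38.9% of all 0 h regions. At 0 h 188 members (4.35%) had it, followed by 137 (3.17%) after 6 h, 158 (3.66%) after 12 h and 160 (3.70%) after 72 h, against 37.0%, 33.8%, 34.5% and 37.1% of all 0 h regions. Of the 188 members with it at 0 h, 123 (65.4%, interval 58.4% to 71.9%) had it at 72 h, against 96.3% of all such regions and 98.1% of such kept regions. Such regions absent at E7.5 alone had it at 72 h in 85.1% of cases. Those absent at 48 h alone had it in 75.2% (interval 67.9% to 81.2%), which overlaps the interval of the members. At 72 h 37 members had H3K4me3 that was not listed at 0 h. Wild-type H3K27ac over the 188 was in both 24 h lists for 52 (27.7%) and at 0 h for 23 (12.2%), against 79.9% and 52.8% of all regions with H3K4me3.

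Polycomb marks covered few early-only regions, at shares near or below the background. H3K27me3 in both 0 h replicates was listed for 82 members (1.90%), against 2.80% of all 0 h regions, and Ring1b in both for 56 (1.30%, interval 1.00% to 1.68%), against 1.53%. By library H3K27me3 was listed for 87 (2.01%) and 122 (2.82%) members at 0 h, 23 (0.532%) after 5 h of Wnt3a, and 30 (0.694%), 38 (0.880%) and 76 (1.76%) after 6, 12 and 72 h of CHIR99021. All 0 h regions had 3.09% and 4.87% at 0 h, 0.772% after Wnt3a, and 1.10%, 1.52% and 2.43% at the CHIR99021 times. Those lists differ widely in length, with 6236 regions in the longer 0 h list and 1012 after Wnt3a. Of the 82, 41 had H3K27me3 at 72 h, against 44.1% of all such regions. Ring1b by library was listed for 69 (1.60%) and 67 (1.55%) members in the 0 h replicates, for 76 (1.76%) in the Wnt3a list and for 10 (0.231%) in the 72 h list. The background for these lists was 2.09%, 2.19%, 3.48% and 0.714%. Of the 56 members with Ring1b in both 0 h replicates, 55 had it after 5 h of Wnt3a, against 93.0% of all such regions, and 7 (12.5%, interval 6.19% to 23.6%) had it after 72 h of CHIR99021, against 20.4%. H3K27me3 in both 0 h replicates together with H3K4me3 at 0 h was listed for 37 members (0.856%), against 2.29%. The 2 input libraries each met 1 member (0.0231%), against 0.249% and 0.431% of all 0 h regions. No histone mark or Ring1b was listed in any library over 3221 members (74.6%, interval 73.2% to 75.8%), against 46.0% of all 0 h regions and 14.2% of kept regions. The share was 65.9% for regions absent at 48 h alone and 51.3% for those absent at E7.5 alone.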

How the data were processed

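The 30 peak lists used came from 21 ChIP-seq, 2 input and 7 ATAC-seq libraries of 57 samples. The 25 samples of 4C were not analysed here, and 2 wild-type H3K4me3 lists were left out because their labels contradict each other. The submitters' processing notes name Bowtie 1.1.0, Bowtie2 2.1.0, cutadapt 1.8.1, SAMtools 0.1.19, MACS2 2.1.0 and the build mm9, without roles. The deposited lists give, for each peak, the authors' fold enrichment over local background (a ratio), the authors' −log10 p and −log10 q values, and a deposited score that was not used. No list went below a −log10 p of 5.00. Read counts are not part of them, which leaves depth unknown.

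Overlaps of at least 1 bp were counted with Python 3.11.15, numpy 2.4.6 and pandas 2.3.3, and the count was tested on simulated regions. Shares carry 95% Wilson intervals (scipy 1.17.1) and figures used matplotlib 3.10.9. Ranks and bands use the authors' fold within 1 list. Groups follow the labels, although embryo peak names carry other stage names, which also differ between the replicates of E6.0 and of E7.2. Nothing in the labels says that replicates came from separate cultures or litters. Regions named are the 10 highest by 0 h fold, the 10 highest with H3K27ac at 0 h and in neither 24 h list, and members within 100 kb of a listed gene. Starts of 37 genes were placed in mm9 from knowledge, and 32 with H3K4me3 within 1 kb in Wnt3KO EpiSCs at 0 h or 72 h were used. Promoters of 29 of the 37 were found in the RefSeq table. The members, gene lists and classes were chosen with earlier results of these data known. Alternatives were another overlap rule, a −log10 q of at least 5, lists of equal length, a 500 bp margin and leaving out each replicate.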

Additional observations from a re-analysis of the deposited data

How the results depend on the processing

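No paired analysis was possible because no test was run: the readouts are shares of regions in lists, and groups hold 1 or 2 libraries. Requiring 50% of the shorter region to be covered gave wild-type H3K27ac over 6.29% of members at 24 h and 7.03% at 0 h, 58.3% of those with it at 0 h in neither 24 h list, and 1.63% with Wnt3KO H3K27ac at 0 h. Requiring the 0 h summit inside the other region gave 5.58%, 5.51%, 57.5% and 0.896% for the same quantities, and 0.0919% for Wnt3KO H3K27ac at 72 h. With a −log10 q of at least 5, E7.2 replicate 1 listed 36.9%. With ATAC-seq lists of equal length there were 1944 members, of which 61.0% and 63.3% were in E7.2 replicates 1 and 2, 11.2% had wild-type H3K27ac at 24 h and 16.8% at 0 h, and 2.78% had Wnt3KO H3K27ac at 0 h. Leaving out members with a 48 h or E7.5 region within 500 bp gave 7.17% for H3K27ac at 24 h. Wild-type H3K27ac lists of equal length gave 2.04% at 24 h and 86.6% in neither 24 h list, and Wnt3KO lists of equal length gave 1.55% at 0 h. The cause was not tested for any of these shifts.

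Leaving out either E6.0 replicate gave 5092 to 6007 members, 30.9% to 34.3% in E7.2 replicate 1, 72.8% to 76.9% in replicate 2, 7.46% to 7.96% with H3K27ac at 24 h, 9.91% to 9.98% at 0 h, 61.8% to 62.4% of these in neither 24 h list and 0.255% to 0.266% with Wnt3KO H3K27ac at 72 h. Leaving out either 24 h H3K27ac replicate gave 9.77% to 11.1% at 24 h and 66.5% to 69.0% of the members with H3K27ac at 0 h not listed at 24 h. Of 128 further Wnt3KO shares under these settings 48 moved, all to lower values. Stricter overlap rules, the −log10 q limit and shortened Wnt3KO lists take away overlaps with the marks, so the direction there is partly fixed by the setting. Depth is unknown and a region under a list's limit is not seen, so list length bears on each share.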

Other observations

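Early-only regions were found on every chromosome of the 0 h list but Y. Their spacing was counted for this class alone, so whether they lie closer together or farther apart than other regions was not tested. With gaps of up to 50 kb allowed, they formed 3745 stretches, and 3260 members (75.5%) stood alone in theirs. There were 15 stretches of 4 or more members, which held 61 of them, and 1 of 5 members, chrX:11643432-11733177 (mm9), where 8 of the 15 regions of the 0 h list were kept and no member had wild-type H3K27ac at 0 h. At chr10:38786894-38829976 all 4 regions of the 0 h list over 43.1 kb were early-only. At chr12:104785770-104839118 all 4 were early-only as well, 3 of them had wild-type H3K27ac at 0 h and 2 of these were in neither 24 h list. These stretches were singled out after their values were seen. By chromosome the early-only share of the 0 h list ran between 8.38% on chromosome 11 and 12.8% on chromosome X, leaving aside Y, which had 3 regions in all and no member.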
